A study of Rattus norvegicus with 12 samples.

Results

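Cyclic nucleotide phosphodiesterases (PDEs) were examined in poly-A RNA-Seq of the central nucleus of the amygdala (CeA). The 10 members were taken by name, as the rows of the count table called *Pde1a*, *Pde1b*, *Pde1c*, *Pde2a*, *Pde4a*, *Pde4b*, *Pde4d*, *Pde7b*, *Pde8b* and *Pde10a*, out of 37209 genes listed. All 10 passed the filter on low counts, which left 20944 genes. The 12 animals were wild type male Sprague Dawley rats aged 14 to 16 weeks. The CIE group (6 rats, numbered 1 to 6) had breathed ethanol vapor in daily cycles with air for several weeks and was killed when the last vapor period ended. The Control group (6 rats, numbered 7 to 12) had breathed air throughout and was taken right after its last air exposure. Each library came from tissue punches of 1 hemisphere of 1 rat, so a punch could also hold tissue next to the CeA. No member differed between the groups at 5% FDR. Levels differed more among the rats of a group than between the groups, and 6 of the genes moved with markers of striatal projection neurons, a closeness reached by 1.82% of the genes outside the marker list, these 6 included.

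PDEs break down the second messengers cAMP and cGMP and so end the signals that adenylyl and guanylyl cyclases start. The families differ in what they cleave and in what controls them. PDE1 enzymes are switched on by calcium and calmodulin and cleave both messengers, PDE2A and PDE10A also cleave both, and PDE4, PDE7 and PDE8 enzymes act on cAMP. In the brain, PDE10A and PDE1B are best known from the medium spiny projection neurons of the striatum, which borders the CeA, and PDE4 enzymes are found in many cell types.

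Total counts ranged from 39082548 to 95647601 per rat. Each member had at least 1544 counts in every rat, at which the counting error is 2.54%. Values are given as CPM, counts scaled to the library total after TMM normalization, and since they are not divided by transcript length, levels are compared between rats but not between genes. The CeA markers *Prkcd* (22.7 to 46.3 CPM) and *Dlk1* (41.8 to 90.0 CPM) were present in every rat. Of 9 CeA markers tested, 2 were lower in CIE rats at a nominal p value below 0.05, which 8.31% of all genes reached in either direction. Control rat 10 had the lowest *Dlk1*. CIE rat 2 (18.7 CPM) and Control rat 10 (19.4 CPM) had the lowest levels of *Nts*, which encodes neurotensin. Some other genes of the CeA marker list went the other way. *Scn4b* (487 and 407 CPM) and *Meis2* (294 and 318 CPM) were highest in CIE rat 2 and Control rat 10, respectively. CIE rat 4 came next in both (118 and 284 CPM). These 3 rats also had the highest striatal marker levels, so neither gene separates CeA from striatal neurons here. The lowest *Prkcd*, 22.7 CPM, was in CIE rat 6. CIE rats 2 and 4 and Control rat 10 stood apart in the markers of striatal projection neurons. They were also high in some cortical markers, with CIE rat 1 highest. *Slc17a7* was at 161, 223 and 130 CPM in them and 348 CPM in CIE rat 1, with no other rat above 43.3 CPM. *Neurod6* was at 7.58, 13.8 and 7.98 CPM and 22.4 CPM in CIE rat 1, with no other rat above 2.85 CPM. Not all cortical markers shared this, and *Nptx1* was lowest in Control rat 10 (80.3 CPM). *Ppp1r1b*, which encodes the phosphoprotein DARPP-32, was on both the striatal and the CeA marker list, so these lists were not separate. It was at 1259 CPM in CIE rat 2, 527 CPM in CIE rat 4 and 1454 CPM in Control rat 10. The other 9 rats had a median of 167 CPM (lowest 51.4, highest 312). The summed level of the 12 striatal markers ran from 1180 to 5946 CPM in CIE and from 815 to 6957 CPM in Control rats. Group differences of the PDEs and their correlations with the striatal score are therefore given with and without these 3 rats. Correlations with other scores, between PDEs and with nearest genes were not repeated without them. In tissue punches, more cells of a type and more RNA per cell cannot be told apart.

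**Figure D1:**
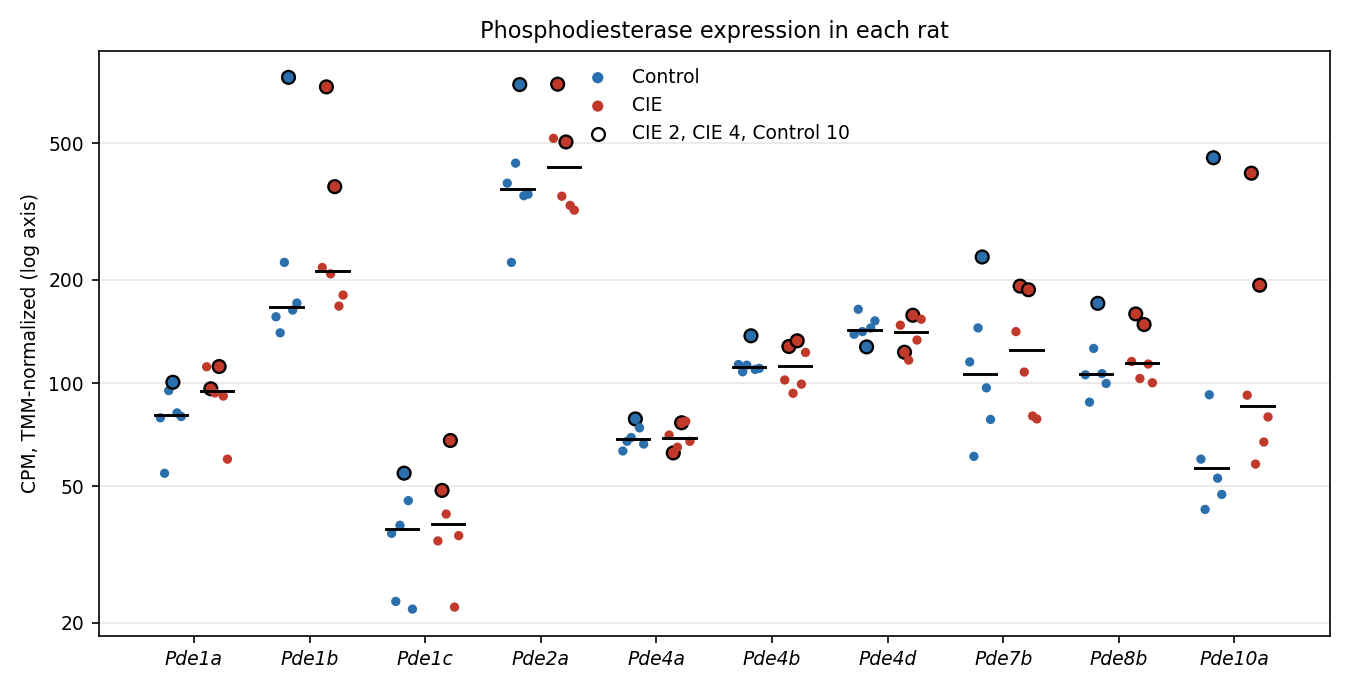
CPM of each PDE gene in each rat, on a log axis, with Control rats in blue, CIE rats in red and the group median as a black line. Points with a black outline are CIE rats 2 and 4 and Control rat 10, which carried the highest striatal marker levels. They hold the 3 highest values of *Pde1b*, *Pde1c*, *Pde4b*, *Pde7b*, *Pde8b* and *Pde10a*.

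*Pde10a*, the dual-specificity enzyme of striatal projection neurons, varied most. In the CIE group it ranged from 58.1 to 410 CPM with a median of 86.0 CPM, and in the Control group from 42.8 to 454 CPM with a median of 56.4 CPM. The highest value was 10.6 times the lowest. The groups overlapped, with the 2 highest values in CIE rat 2 and Control rat 10 and the third, 193 CPM, in CIE rat 4. In these rats *Pde10a* was at 6.82, 7.57 and 3.22 times the median of the other 9 rats, respectively. Its coefficient of variation (CV) over the 12 rats was 104%, rank 10 of the 7018 genes with a mean of at least 30 CPM, whose median CV was 9.86%.

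The RefSeq promoter table (build GRCr8) matched 8 of the 10 members with 18 windows of 250 bases before to 50 bases after a start. They were searched on both strands for TGACG, the core of the cAMP response element to which CREB binds, because PDEs act on the messenger that drives CREB. The core was present in 5 of 18 windows (27.8%), in *Pde10a*, *Pde4a* and *Pde4d*, against 21.2% of all 33469 windows. The full element TGACGTCA, which contains the core on each strand, was in 0 of the 18 and in 1.83% of all windows. The windows below are shown to set *Pde10a* and *Pde8b*, which varied together among rats, beside *Pde4a* and *Pde4d*, which were steady. Capitals mark TGACG or its reverse complement CGTCA. A match describes the letters only, and the counts do not tell which start was used. The table holds 2 windows of *Pde10a* (1 with a match), 5 of *Pde4d* (2 with a match), 4 of *Pde4a* (2 with a match) and 1 of *Pde8b*, and 1 per gene is shown, with a match where the gene has one. The *Pde10a* window shown is chr1:54765619-54765918 on the minus strand, that of *Pde8b* is chr2:28116002-28116301 on the minus strand, that of *Pde4d* is chr2:42592499-42592798 on the plus strand and that of *Pde4a* is chr8:27999163-27999462 on the plus strand.
Pde10a: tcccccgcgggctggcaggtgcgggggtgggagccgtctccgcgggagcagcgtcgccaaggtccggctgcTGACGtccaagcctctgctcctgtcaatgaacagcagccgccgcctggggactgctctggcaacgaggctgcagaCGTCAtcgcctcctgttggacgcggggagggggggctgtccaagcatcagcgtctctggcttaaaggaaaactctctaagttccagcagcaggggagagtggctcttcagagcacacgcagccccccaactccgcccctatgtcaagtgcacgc
Pde8b: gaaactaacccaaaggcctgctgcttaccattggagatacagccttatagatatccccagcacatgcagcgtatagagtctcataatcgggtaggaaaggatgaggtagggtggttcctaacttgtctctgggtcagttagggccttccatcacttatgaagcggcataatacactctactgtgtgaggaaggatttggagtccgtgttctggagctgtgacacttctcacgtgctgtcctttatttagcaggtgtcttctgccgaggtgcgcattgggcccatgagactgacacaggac
Pde4d: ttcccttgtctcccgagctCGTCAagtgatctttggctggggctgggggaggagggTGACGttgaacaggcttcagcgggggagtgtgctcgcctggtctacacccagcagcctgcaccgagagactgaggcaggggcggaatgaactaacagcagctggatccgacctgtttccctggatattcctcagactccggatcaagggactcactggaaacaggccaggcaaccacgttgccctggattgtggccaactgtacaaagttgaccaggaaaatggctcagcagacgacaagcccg
Pde4a: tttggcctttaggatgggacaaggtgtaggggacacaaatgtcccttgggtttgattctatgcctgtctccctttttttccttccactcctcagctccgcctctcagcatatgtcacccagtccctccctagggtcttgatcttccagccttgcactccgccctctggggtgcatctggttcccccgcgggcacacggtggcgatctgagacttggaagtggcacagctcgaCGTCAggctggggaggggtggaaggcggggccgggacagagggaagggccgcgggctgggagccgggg
The *Pde10a* window held 2 matches, at positions -179 and -104 from the start site, the *Pde4d* window also held 2, at -231 and -194, the *Pde4a* window held 1, at -18, and the *Pde8b* window held 0. The core was therefore found both in a gene that varied strongly among rats and in genes that did not.

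*Pde1b*, the calmodulin-dependent enzyme abundant in striatum, followed *Pde10a* closely. It ranged from 168 to 731 CPM (median 213 CPM) in the CIE group and from 140 to 780 CPM (median 167 CPM) in the Control group. The same 3 rats were highest, at 731, 780 and 374 CPM in CIE rat 2, Control rat 10 and CIE rat 4, where no other rat exceeded 225 CPM. Its CV was 76.7%, rank 22 of the same 7018 genes. Within the calmodulin-dependent family the members were unlike each other. *Pde1c* ranged from 22.2 to 68.0 CPM in CIE rats (median 38.7) and from 21.9 to 54.6 CPM in Control rats (median 37.5). *Pde1a* ranged from 60.02 to 112 CPM (median 94.96) and from 54.6 to 101 CPM (median 80.9), with a CV of 20.3%, and CIE rat 2 (96.3 CPM) did not stand out.

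*Pde2a*, whose enzyme is stimulated by cGMP and so links the cGMP and cAMP pathways, ranged from 319 to 745 CPM in CIE rats (median 428) and from 225 to 743 CPM in Control rats (median 369). CIE rat 2 and Control rat 10 were again highest, while CIE rat 4 (505 CPM) lay below CIE rat 1 (518 CPM). The cAMP-specific *Pde7b* ranged from 78.6 to 192 CPM (median 125) and from 61.2 to 233 CPM (median 106). The cAMP-specific *Pde8b* had a narrower range, 100.2 to 159 CPM (median 115) and 88.0 to 171 CPM (median 106). In all 3 genes the groups overlapped over most of their range, and Control rat 8 was the lowest rat, as it was for *Pde10a* and *Pde1b*.

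The PDE4 genes, which encode the rolipram-sensitive cAMP-specific enzymes, were the steadiest. *Pde4a* lay between 62.6 and 77.4 CPM in CIE rats (median 69.1) and between 63.4 and 78.6 CPM in Control rats (median 68.5), and its highest value was 1.26 times its lowest. *Pde4b* lay between 93.4 and 133 CPM (median 113) and between 108 and 137 CPM (median 112). *Pde4d* lay between 117 and 158 CPM (median 141) and between 128 and 164 CPM (median 143). Their CVs over the 12 rats were 7.91%, 11.9% and 10.2%, near the 9.86% median of abundant genes. Control rat 10 was the highest rat in *Pde4a* and *Pde4b* but the lowest Control rat in *Pde4d*, at 128 CPM.

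To ask whether CIE changed PDE expression, the 2 groups were compared by edgeR over all 20944 genes. Of the 10 members, 0 passed 5% FDR, where 0.363% of all genes did, and 0 had a nominal p value below 0.05, where 8.31% of all genes did. DESeq2 and limma-voom with sample quality weights also gave 0 at either threshold. Some limma-voom log2 fold changes were larger than those of edgeR. They were 0.95 in *Pde10a* (limma-voom nominal p 0.0591), 0.60 in *Pde1b* (nominal p 0.101) and 0.29 in *Pde1a* (nominal p 0.0649). In 0 members were the groups free of overlap, against 0.893% of all genes. The log2 fold changes, CIE against Control, lay between -0.06 and 0.26 with a median of 0.13, beside 0.00096 over all genes. They were above 0 in 8 members and below 0 in 2.

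The intervals show what these rats could resolve. The log2 fold change of *Pde4a* was 0.0014 (SE 0.072) with a 95% interval of -0.15 to 0.15, or 0.900-fold to 1.11-fold. That of *Pde4b* was -0.027 (interval -0.24 to 0.18) and that of *Pde4d* was -0.062 (interval -0.25 to 0.12). As folds, the intervals were 0.849 to 1.13 for *Pde4b* and 0.843 to 1.09 for *Pde4d*, so larger changes lay outside them. The interval of *Pde10a* was wide, from -1.14 to 1.66 around 0.26 (SE 0.65, FDR 0.946), or 0.455-fold to 3.17-fold. *Pde1b* had a log2 fold change of 0.20 (SE 0.48, interval -0.82 to 1.22, FDR 0.945) and *Pde7b* one of 0.11 (SE 0.31, interval -0.57 to 0.78, FDR 0.955). The values of *Pde2a* (0.15, interval -0.42 to 0.72), *Pde1c* (0.19, interval -0.37 to 0.75) and *Pde8b* (0.086, interval -0.26 to 0.43) were likewise smaller than their spread. *Pde1a* had the smallest nominal p value of the members, 0.217 (log2 fold change 0.20, interval -0.13 to 0.54, FDR 0.798). Exact permutation tests of the group means in CPM gave two-sided p values between 0.247 and 0.994 for the 10 genes, where 6 rats against 6 can reach 0.00216.

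**Figure D2:**
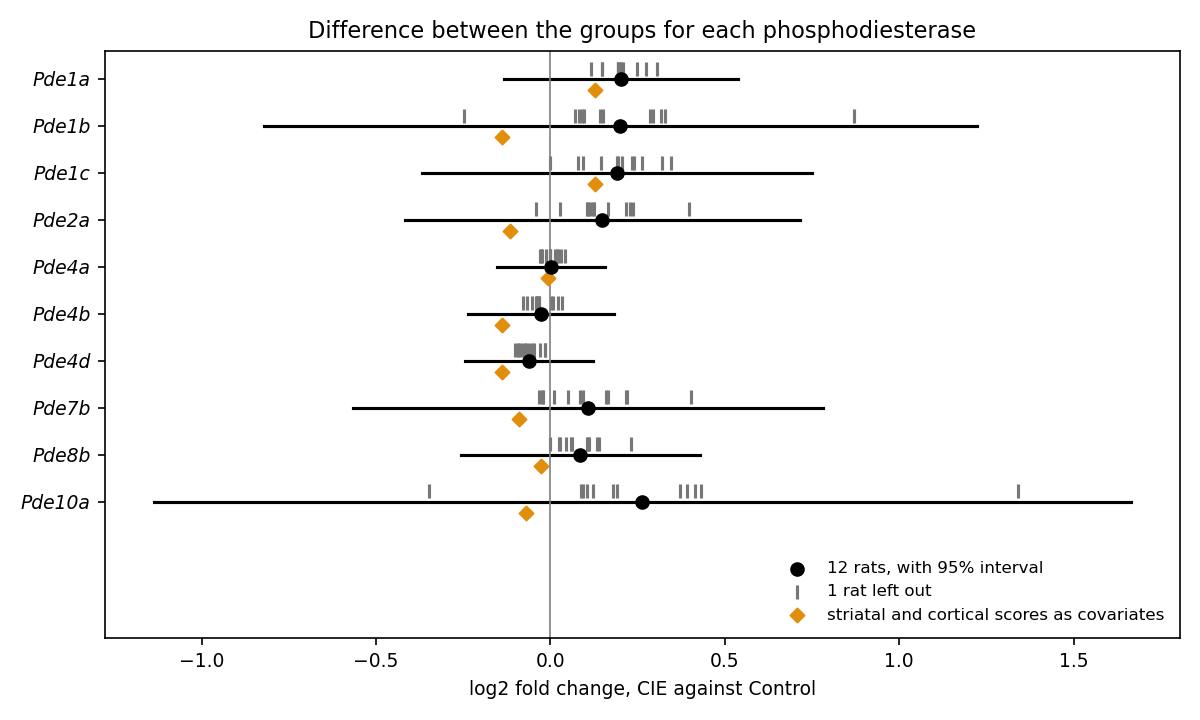
Log2 fold change of each PDE gene, CIE against Control, from all 12 rats (black points, bars for the 95% interval), with each rat left out in turn (grey ticks) and with the striatal and cortical marker scores as covariates (orange diamonds). Every interval from the 12 rats crosses 0, and the ticks of *Pde10a* and *Pde1b* spread from -0.35 to 1.34 and from -0.25 to 0.87.

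Single rats set the values of *Pde10a* and *Pde1b*. Without Control rat 10 the log2 fold change of *Pde10a* was 1.34 (SE 0.46, nominal p 0.0124, FDR 0.306) and that of *Pde1b* was 0.87 (SE 0.34, nominal p 0.0227, FDR 0.360). Without CIE rat 2 they were -0.35 and -0.25, below 0. With CIE rats 2 and 4 and Control rat 10 all set aside, a choice made after their values were seen, *Pde10a* was at 0.34 (SE 0.20, nominal p 0.122, FDR 0.855) and *Pde1b* at 0.19 (SE 0.13, nominal p 0.167, FDR 0.889). Of the other members in these 9 rats, *Pde1c* was at 0.034, *Pde7b* at 0.046, *Pde8b* at 0.047, *Pde4a* at 0.049, *Pde2a* at 0.12, *Pde1a* at 0.20, *Pde4b* at -0.078 and *Pde4d* at -0.098, and 0 of the 10 reached the nominal threshold. Over all 21 alternatives the FDR of *Pde10a* lay between 0.306 and 0.996 and that of *Pde1b* between 0.360 and 0.996. *Pde1a* reached a nominal p value of 0.0340 without CIE rat 6, its lowest CIE value (log2 fold change 0.30, FDR 0.481), and its FDR over the alternatives lay between 0.321 and 0.963.

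The levels of the 10 genes were then set against scores of 3 marker lists, each the mean over its genes of standardized log2 CPM. In all, 30 relations were computed and p values were Benjamini-Hochberg adjusted over them. *Pde1b* correlated with the striatal score at Pearson's r = 0.972 (adjusted permutation p = 0.00015) and Spearman's rho = 0.867 (adjusted permutation p = 0.00472). *Pde8b* (r = 0.966, rho = 0.909), *Pde10a* (r = 0.965, rho = 0.839), *Pde7b* (r = 0.931, rho = 0.965) and *Pde2a* (r = 0.924, rho = 0.818) showed the same relation, with adjusted permutation p values of at most 0.0003 for r and 0.00814 for rho. *Pde1c* followed with r = 0.783 and rho = 0.853 (adjusted permutation p = 0.0126 and 0.00472). Thus 6 members passed 5% on both measures. As background, 1.82% of the 20932 genes outside the score, and 3.61% of the 7007 of these with a mean of at least 30 CPM, had r and rho at or above the lowest of these 6.

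The relation did not rest on the 2 rats with the most extreme scores. Without CIE rat 2 and Control rat 10, r lay between 0.794 and 0.926 in these 6 genes. With CIE rat 4 also left aside, r over the 9 rats was 0.711 in *Pde10a*, 0.745 in *Pde1c*, 0.752 in *Pde2a*, 0.819 in *Pde1b*, 0.836 in *Pde8b* and 0.887 in *Pde7b*, given with no test. There rho ran from 0.617 in *Pde10a* to 0.917 in *Pde7b*. *Pde1a*, not among the 6, lay within these ranges, with r = 0.738 and rho = 0.833. Within the Control group r lay between 0.832 and 0.992 (n = 6, exact permutation p between 0.00278 and 0.0194), and within the CIE group between 0.718 and 0.990 (n = 6, exact permutation p between 0.0111 and 0.100, the highest for *Pde1c*). All 6 genes had a positive r in each group, and *Pde1c* alone missed 5% within the CIE group. The Control values still include Control rat 10 and the CIE values CIE rat 2, so they cannot show independence from these rats. The 6 genes were picked by the same correlation in the same rats, and the within-group p values were not adjusted. The score shares its libraries with the PDE values, and it includes genes of the same pathway (*Adcy5* and *Gnal*).

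**Figure D3:**
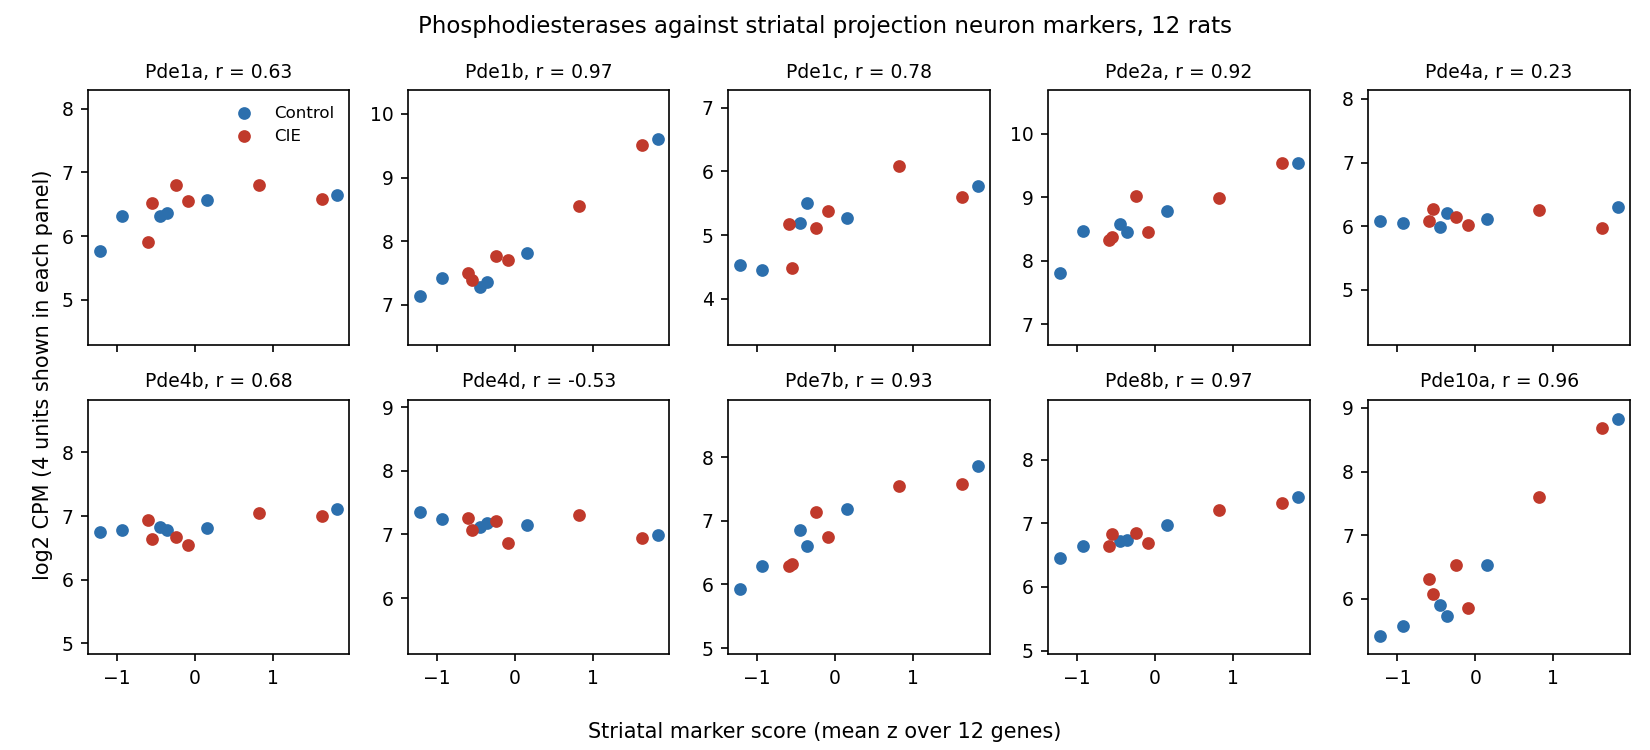
Log2 CPM of each PDE gene (vertical axis, 4 log2 units in every panel) against the striatal marker score of the rat (horizontal axis, mean standardized log2 CPM of 12 markers), with Control rats in blue and CIE rats in red. *Pde1b*, *Pde2a*, *Pde7b*, *Pde8b* and *Pde10a* climb with the score at r of 0.924 to 0.972, while *Pde4a* and *Pde4d* are nearly level.

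The other 4 members did not pass 5% on both measures. *Pde1a* had r = 0.633 (adjusted permutation p = 0.103) but rho = 0.846 (adjusted permutation p = 0.00635) and CIE rat 2 and Control rat 10 did not exceed CIE rats 1 and 4. Without the 2 extreme rats its r was 0.770. *Pde4b* had r = 0.676 (adjusted permutation p = 0.0642) and rho = 0.490, and r fell to 0.362 without these rats. *Pde4a* (r = 0.226, rho = 0.196) and *Pde4d* (r = -0.534, rho = -0.545) did not pass the adjustment. *Pde4d* was the only member with a negative r for the striatal score, and within the Control group it stood at -0.901 (exact permutation p = 0.0111) against -0.225 within the CIE group (exact permutation p = 0.678), a difference that was not tested. Without the 2 extreme rats the r of *Pde4d* was -0.197. Over the 9 rats left without CIE rat 4 as well, its r was -0.651 and its rho -0.65. In the same 9 rats *Pde4a* had r = 0.083, all given with no test.

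No member passed 5% with the cortical glutamatergic or the myelin score. The largest r in size was 0.466 for the cortical and 0.577 for the myelin score (smallest adjusted permutation p values 0.340 and 0.165). These scores were not tested between the groups, and the cortical score overlapped, from -0.65 to 1.13 in CIE and from -0.84 to 0.46 in Control rats. Of 11 myelin markers 10 were lower in the CIE group at a nominal p value below 0.05, and 3 of 11 cortical markers were higher. In either direction, 0 of 12 striatal markers passed. Of all genes, 8.31% reached this threshold in either direction and 0.363% passed 5% FDR. Blood and vessel markers were lower in CIE rats as well, namely 5 of 5 erythroid markers (4 at 5% FDR, summed level 123 to 394 CPM against 501 to 922 CPM), 5 of 6 endothelial and 3 of 6 pericyte markers. The part of these cells in the PDE values was not tested. With the striatal and cortical scores as covariates, the log2 fold changes of *Pde10a*, *Pde1b*, *Pde2a*, *Pde7b* and *Pde8b* lay between -0.14 and -0.027, with *Pde10a* at -0.069 (SE 0.15), and 0 members had a nominal p value below 0.05. With the myelin score as a covariate the count was also 0.

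The PDEs were also set against each other. After the group means were removed, the 10 pairs among *Pde10a*, *Pde1b*, *Pde2a*, *Pde7b* and *Pde8b* had r between 0.866 and 0.982 over the 12 rats, highest for *Pde1b* and *Pde10a*. With *Pde1c* added, the 15 pairs ran down to 0.665. The 3 pairs among *Pde4a*, *Pde4b* and *Pde4d* lay between 0.110 and 0.216, lower than every pair of the first set. *Pde4b* nevertheless reached 0.812 with *Pde10a* and 0.747 with *Pde1b*, and *Pde1a* reached 0.786 with *Pde7b* and 0.740 with *Pde2a*, above several pairs of *Pde1c*, so the pairs gave no sharp border around the 6 genes. These values describe 12 shared libraries and carry no test.

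**Figure D4:**
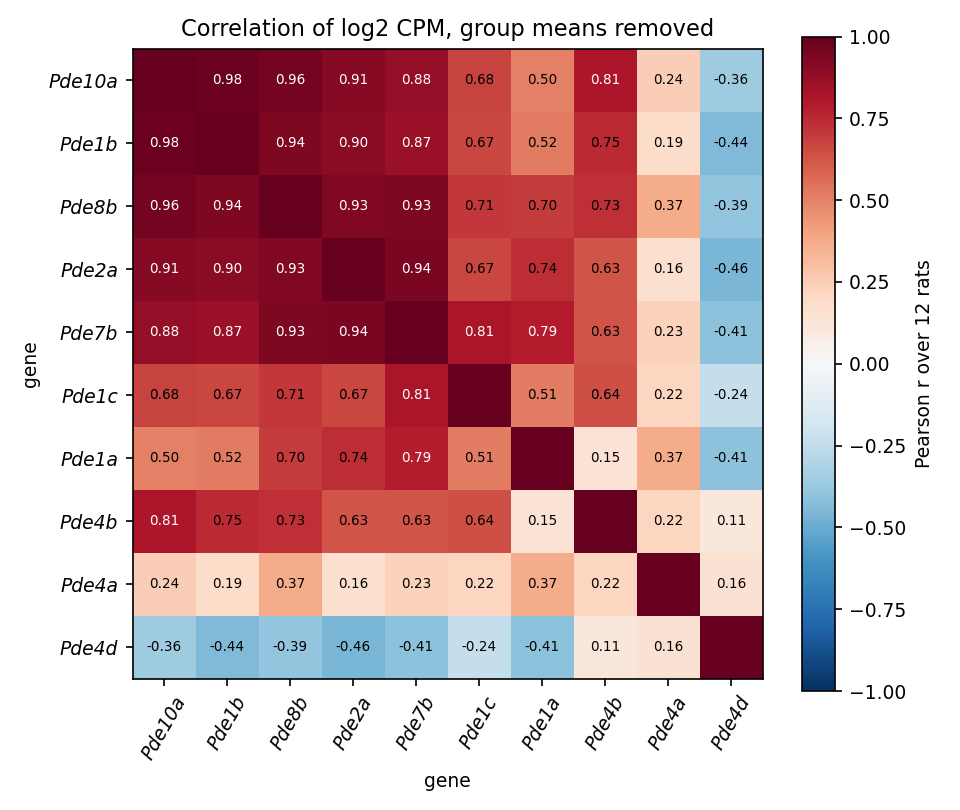
Pearson's r between log2 CPM of each pair of PDE genes over the 12 rats after removal of the group means, from blue (-1) to red (1), with the genes on both axes. The block of *Pde10a*, *Pde1b*, *Pde8b*, *Pde2a* and *Pde7b* lies at 0.866 or above, and *Pde4d* is negative with each gene of that block.

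Among 13294 other genes with a mean of at least 5 CPM, those most like each member were found by Pearson's r with group means removed, over the 12 rats. For *Pde10a* they were *Adcy5* (0.994), *Itpr1* (0.993) and *Foxp1* (0.991), which encode the main striatal adenylyl cyclase, an IP3 receptor and a transcription factor. For *Pde1b* they were *Atp2b1* (0.994), *Arpp19* (0.993) and *Rgs9* (0.990), and for *Pde7b* they were *Wipf3* (0.991), *Bcl11b* (0.983) and *Car12* (0.979). *Bcl11b* encodes CTIP2, a transcription factor of striatal projection neurons, and *Rgs9* a striatal regulator of G protein signaling. *Pde8b* was nearest to *Rasl10b* (0.995), LOC103694863 (0.992) and *Dtnb* (0.985), and *Pde2a* to *Lmo7* (0.985), LOC680336 (0.982) and *Zfp46* (0.981). Other nearest genes were *Tpm3* for *Pde1a* (0.951), *Fiz1* for *Pde1c* (0.933), *Mki67* for *Pde4b* (0.981) and *Rnf213* for *Pde4d* (0.940). The highest of so many values is high by selection, so these are descriptions only.

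Of 14 other PDE genes, 13 were tested. None passed 5% FDR, and 3 had a nominal p value below 0.05, where 8.31% of all genes did. *Pde9a*, which encodes a cGMP-specific enzyme, averaged 54.6 ± 7.10 CPM (SD) over 6 CIE rats and 46.2 ± 6.94 CPM over 6 Control rats (log2 fold change 0.24, SE 0.11, FDR 0.584). *Pde3b*, a cGMP-inhibited enzyme, averaged 20.02 ± 1.45 CPM in CIE against 22.4 ± 1.75 CPM in Control rats (log2 fold change -0.16, SE 0.071, FDR 0.575). *Pde6g*, the inhibitory subunit of the photoreceptor enzyme, was at 0.252 CPM in CIE and 0.523 CPM in Control rats (log2 fold change -1.04, SE 0.41, FDR 0.505). It was near the floor, with 7 counts in CIE rat 4 and at most 68, in Control rat 7. *Pde6d*, with *Pde9a* the highest of the 13 in CPM, had a log2 fold change of -0.12.

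The wider cyclic nucleotide pathway was similar. With these PDEs, 84 of 90 listed genes were tested, and 6 of them (7.14%, against 8.31% of all genes) reached the nominal threshold of 0.05. The CIE mean of 3 of these was above the Control mean, and that of 3 was below it. At 5% FDR edgeR called 0 of the 84. DESeq2 gave 8 of the 84 at the nominal threshold, which 1929 of all 20944 genes reached with DESeq2. The CREB coactivators *Crtc3* (CIE 20.9 CPM, Control 17.5 CPM, log2 fold change 0.26, FDR 0.544) and *Crtc2* (CIE 27.2 CPM, Control 23.5 CPM, log2 fold change 0.21, FDR 0.578) were 2 of the 3 higher genes. The inhibitory G protein gene *Gnai3* averaged 35.3 ± 1.38 CPM in CIE and 39.2 ± 2.45 CPM in Control rats (log2 fold change -0.15, FDR 0.462). Of 10 adenylyl cyclase genes, 10 tested guanylyl cyclase genes, 11 PKA and PKG genes, 12 tested sensors and 15 anchoring and regulatory genes, 0 had a nominal p value below 0.05. The smallest nominal p values in these lists were those of *Adcy9* (0.215), *Npr1* (0.317), *Prkar1a* (0.105), *Rapgef4* (0.0935) and *Pde4dip* (0.258), which encodes a PDE4 anchor. The medians of the 8 lists lay between -0.047 and 0.10 on the log2 scale.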

How the data were processed

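Poly-A RNA-Seq was carried out on CeA punches of 6 CIE and 6 Control rats, with 1 library per rat. The deposited values are raw counts per gene, which the authors made with BWA (paired reads on Rnor_6.0) and HTSeq. BWA does not split reads across introns, which can lower the counts of short exons. The annotation and the strand and overlap settings are not given in the sources used here. The main test used edgeR 4.0.16 under R 4.3.3 (TMM, filterByExpr, quasi-likelihood F test, two-sided, no covariates), with limma 3.58.1 and DESeq2 1.42.0 as alternatives, and in Python 3.11.15 with scipy 1.17.1. FDR values are Benjamini-Hochberg adjusted over all genes tested. Intervals are 95% intervals of the edgeR coefficient, and log2 CPM used a prior count of 2. The tests were checked on simulated counts with 200 changed genes, whose log2 fold changes had a median size of 1.01 in edgeR. Genes were drawn independently of each other, so smaller changes and genes that move together were not checked. At 5% FDR edgeR recovered 151 of them with 4 false calls, DESeq2 159 with 26 and limma-voom 147 with 5. Correlations used 100000 permutations over 12 rats and exact permutations within groups. Marker scores used 12 striatal, 11 cortical and 11 myelin genes.

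Each rat was left out in turn, and 8 other fits (scaling, filter, test, marker scores as covariates) and 1 added after seeing the data were run, with the correlations repeated in its 9 rats. The members and gene lists were chosen with earlier results of these data known. All members are named. Other PDEs are named at a nominal p value below 0.05 or as the 2 highest in CPM, genes of the other lists among the 3 smallest p values, and for each member the nearest genes of 3, of which that of *Pde4a* is not reported here. Promoter windows come from RefSeq and their build differs from that of the counts. The qRT-PCR and electrophysiology values were not analysed here.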

Additional observations from a re-analysis of the deposited data

Results flagged for a closer look

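A single rat stood apart from the other 5 of its group by Dixon's ratio of the gap to the range in 11 of 76 groups of 6 values examined, where chance gives about 1 in 20. The same libraries recur, so these are not 11 separate events. Control rat 10 was high in *Pde10a* (454 CPM, next 92.5 CPM), *Pde1b* (780 CPM, next 225 CPM), *Pde4b* (137 CPM, next 113 CPM), *Adcy1* (145 CPM, next 79.3 CPM) and *Adcy9* (123 CPM, next 71.8 CPM). It was low in *Gnas* (945 CPM, next 1485 CPM), *Gnai2* (240.0 CPM, next 294 CPM) and *Prkar1b* (503 CPM, next 643 CPM). CIE rat 2 was high in *Pde1b* (731 CPM, next 374 CPM). CIE rat 6 was low in *Calm3* (419 CPM, next 494 CPM) and high in *Npr1* (36.05 CPM, next 22.3 CPM).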

How the results depend on the processing

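No paired analysis was possible because the CIE and Control rats share no numbers. The count of members past 5% FDR stayed 0 under every alternative run. Over all genes, 1954 of 21093 had a nominal p value below 0.05 without CIE rat 6, and 2420 of 21213 without Control rat 10. When single rats were left out, the count of members at that threshold ranged from 0 to 2. It reached 1 (*Pde1a*) without CIE rat 6 and 2 (*Pde1b* and *Pde10a*) without Control rat 10. The log2 fold changes then ranged from -0.35 to 1.34 in *Pde10a*, -0.25 to 0.87 in *Pde1b*, 0.12 to 0.30 in *Pde1a*, -0.10 to -0.015 in *Pde4d*, -0.0018 to 0.34 in *Pde1c*, -0.041 to 0.40 in *Pde2a*, -0.030 to 0.043 in *Pde4a*, -0.079 to 0.033 in *Pde4b*, -0.032 to 0.40 in *Pde7b* and -0.00065 to 0.23 in *Pde8b*. The striatal and cortical scores as covariates turned the sign of *Pde1b* (-0.14), *Pde2a* (-0.12), *Pde4a* (-0.0062), *Pde7b* (-0.089), *Pde8b* (-0.027) and *Pde10a* (-0.069), and the myelin score that of *Pde1a* (-0.057), *Pde4b* (0.044), *Pde4d* (0.0085) and *Pde7b* (-0.012). *Pde4a* was at -0.0042 without a filter and *Pde4b* at 0.036 in limma-voom. *Pde10a* was at 0.95 in limma-voom and at 0.91 with the myelin score. None of these passed a nominal p value of 0.05 except those named without CIE rat 6 or Control rat 10, and the cause was not tested. With group means removed, *Pde10a* and the myelin score had r = 0.11 and *Pde4b* and the striatal score r = 0.711 (adjusted permutation p = 0.0382), which was r = -0.21 in the 9 rats. Over all genes, 76 passed 5% FDR with edgeR, 273 with DESeq2, 234 with limma-voom, 26 with the striatal and cortical scores, 29 with the myelin score and 34 without the 3 rats. With library size only, 1060 of 1757 genes at a nominal p value below 0.05 had a positive fold change, and with TMM 837 of 1740. Without single rats 34 to 154 genes passed 5% FDR. The nominal count was 3596 in limma-voom and 2811 without CIE rat 3. No reads were thinned to a common depth, so the part of depth in these values was not tested.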
